A study of Mus musculus with 6 samples.

Results

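Proteasome genes were followed in B16F10 cells, an established mouse melanoma line, grown as spheroids in Matrigel with or without BMP2. The genes are all protein-coding genes of the deposited table whose symbol is Psm followed by a letter from a to g and a number, without the immunoproteasome genes Psmb8, Psmb9 and Psmb10, which gave 47 of the 34981 genes in the table. They comprise 16 genes of the core particle (Psma and Psmb), 20 of the regulatory particle (Psmc and Psmd), 10 for activators, an inhibitor and assembly factors (Psme, Psmf1 and Psmg), and Psmc3ip. Psmc3ip meets the rule by its symbol alone: it is known as a factor of meiotic recombination and is not a proteasome subunit. The rule reads symbols only, although the genes were chosen with earlier results of these data known.

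The spheroids began from 500 cells in 50 µl of Matrigel, a basement membrane extract, at 7 mg/ml, and were kept for 10 days with BMP2 at 100 ng/ml or with PBS as the control. Both groups are the same parental line, with no genetic change named in the labels, and each group holds 3 cultures, 1 from each of 3 batches in which the experiment was repeated. RNA sequencing gave estimated counts per gene, at totals of 27821911 to 36856498 per library. Values below are CPM, each library's counts divided by its total scaled by the trimmed mean of M values, unless another scale is named. The melanocyte identity of the cultures was visible in all 6 libraries, with Pmel, a melanosome matrix protein, at 6408 to 12690 CPM, while the leukocyte gene Adgre1 and the endothelial gene Cdh5 had 0 counts in each. All 7 melanocyte markers were higher with BMP2 in each batch (22.8% of all genes were). Their summed level was 23670 to 26310 CPM in PBS and 28870 to 39070 CPM in BMP2. In the edgeR fits without and with batch as a block 0 of 7 passed, where 0.0464% and 0.735% of all genes did. At an unadjusted p under 0.05 there were 2 of 7 without the block and 7 of 7 with it, all higher. Of all genes, 5.38% and 17% lay under that value, with 8.12% higher in the blocked fit. The part of the melanocyte markers in the values of the proteasome genes was not tested. The 6 leukocyte markers summed to 4.33 to 5.53 CPM in PBS and 2.52 to 3.66 CPM in BMP2, most of it Cd68. The 6 stromal and endothelial markers summed to 5.96 to 10.3 CPM in PBS and 3.91 to 7.22 CPM in BMP2. Pdgfra was at 1.66 to 7.32 CPM and lower with BMP2 in each batch. Col1a1, at 0.822 to 1.80 CPM, was lower with BMP2 in batch 1 and higher in batches 2 and 3. Pecam1, at 0.724 to 2.02 CPM, was higher in batch 1 and lower in batches 2 and 3. The part of these markers was not tested either. The library PBS 1 stood apart from the other 5 on the first principal component, at -79.7 against -16.8 to 55.5, and 31 of 44 tested proteasome genes were higher in PBS 1 than in the mean of PBS 2 and PBS 3 (70.5%, against 49.6% of all tested genes). PBS 1 was the higher for 69.9% of all genes with a transcript under 1500 bases and for 45.0% of longer ones, and among the proteasome genes for 18 of 23 shorter and 13 of 21 longer ones. The part of this in the values of the proteasome genes was not tested.

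The proteasome is the protease complex that degrades proteins tagged with ubiquitin. Its core particle is a barrel of alpha and beta rings in which the beta subunits encoded by Psmb5, Psmb6 and Psmb7 carry the active sites. The regulatory particle at the end of the barrel binds and unfolds the substrate with a ring of ATPases (Psmc genes) and receives it through non-ATPase subunits (most Psmd genes). When proteasome activity falls short, the transcription factor encoded by Nfe2l1 is known to raise many subunit genes together through antioxidant response elements in their promoters.

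Those elements share the core TGACNNNGC, and 4 promoter windows that hold it are shown, since this is the sequence through which the subunit genes are known to be raised together. The windows come from RefSeq on GRCm38.p6 and reach from 250 bases before to 50 bases after a start site. Of the 47 genes, 39 matched the table by symbol, with 42 windows. Capitals mark each match to TGACNNNGC on either strand. Psmb5 (chr14:54617946-54618245, minus strand) and Psmb6 (chr11:70525107-70525406, plus strand) are shown as catalytic core genes, Psmc6 (chr14:45329574-45329873, plus strand) as an ATPase gene and Psmd12 (chr11:107479278-107479577, plus strand) as a gene of the lid of the regulatory particle. Each sequence is written 5′ to 3′ along the gene.
Psmb5: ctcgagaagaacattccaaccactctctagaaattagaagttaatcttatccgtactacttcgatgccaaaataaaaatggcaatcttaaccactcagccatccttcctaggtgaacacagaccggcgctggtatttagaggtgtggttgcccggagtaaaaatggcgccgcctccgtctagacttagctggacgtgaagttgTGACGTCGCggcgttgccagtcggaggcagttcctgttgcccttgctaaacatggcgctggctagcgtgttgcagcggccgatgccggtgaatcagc
Psmb6: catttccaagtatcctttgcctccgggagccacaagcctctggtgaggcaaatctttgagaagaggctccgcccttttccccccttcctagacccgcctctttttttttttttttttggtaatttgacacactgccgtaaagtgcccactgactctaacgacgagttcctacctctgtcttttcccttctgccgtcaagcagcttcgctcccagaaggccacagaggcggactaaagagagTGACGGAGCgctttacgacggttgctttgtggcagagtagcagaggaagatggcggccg
Psmc6: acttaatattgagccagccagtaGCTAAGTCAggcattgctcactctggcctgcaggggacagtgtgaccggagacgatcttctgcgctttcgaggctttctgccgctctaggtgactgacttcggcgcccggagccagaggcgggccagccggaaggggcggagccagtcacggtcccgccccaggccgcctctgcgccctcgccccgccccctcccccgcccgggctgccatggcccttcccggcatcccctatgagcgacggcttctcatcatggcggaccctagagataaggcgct
Psmd12: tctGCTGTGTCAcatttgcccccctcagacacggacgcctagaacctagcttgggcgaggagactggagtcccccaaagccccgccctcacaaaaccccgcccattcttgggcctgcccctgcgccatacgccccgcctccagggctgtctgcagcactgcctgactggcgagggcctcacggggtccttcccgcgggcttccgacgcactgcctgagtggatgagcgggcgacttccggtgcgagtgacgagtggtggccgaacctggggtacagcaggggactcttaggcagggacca

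Counted from the start site, the match begins at -47 in Psmb5 and at -9 in Psmb6. In Psmc6 and Psmd12 it lies on the other strand, and its first base along the gene is at -227 and -247. Of the 42 windows, 6 (14.3%) held TGACNNNGC on either strand, against 14.0% of 12294 windows of genes tested here and 12.4% of all 32851 windows. The other 2 genes with a match were Psmd9 and Psme4. The short sequence CCGGAAG, a form of the site bound by ETS factors, was in 16 windows (38.1%), against 17.5% of the windows of tested genes and 8.86% of all. GGGCGG, the GC box, was in 54.8% of the windows against 62.5% for tested genes, CCAAT in 33.3% against 37.9%, and CACGTG in 7.14% against 9.87%. All 5 sequences were searched on both strands, and a match describes letters in the window, not a bound site.

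Between BMP2 and PBS, 0 of the 44 proteasome genes with enough counts to be tested passed an adjusted p of 0.05 with edgeR's quasi-likelihood test, where 0.0464% of all 12929 tested genes passed, 0.00773% as higher and 0.0387% as lower. With batch as a block, 0 of 44 passed, against 0.735% of all genes, and with the Wald test of DESeq2 0 of 44 passed, against 1.01%. At an unadjusted p under 0.05 the counts were also 0 of 44 in these 3 tests, where 5.38%, 17% (8.12% higher and 8.89% lower) and 6.8% of all genes lay under that value. The smallest unadjusted p among the members was 0.142, or 0.0530 in the blocked fit, both for the ATPase gene Psmc3. The edgeR adjusted p values ran from 0.883 to 0.999 without the block and from 0.299 to 0.998 with it.

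The measured differences were small. Log2 fold changes of the 44 genes, BMP2 minus PBS, ran from -0.31 for Psmd8 to 0.30 for Psmd6, with a median of 0.037, and the median over all tested genes was 0.010. With batch as a block the median was 0.051 and the range -0.32 to 0.36. The 95% interval of the log2 fold change lay inside a 1.5-fold change in both directions for 25 of the 44 genes without the block and for 36 with it. It lay inside a 2-fold change for 43 of the 44 in either fit, the exception being Psmc3ip, whose interval without the block was -0.55 to 1.09. These are intervals per gene, with no adjustment for the number of genes, and a p above the threshold does not show that the 2 groups are equal.

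**Figure D1:**
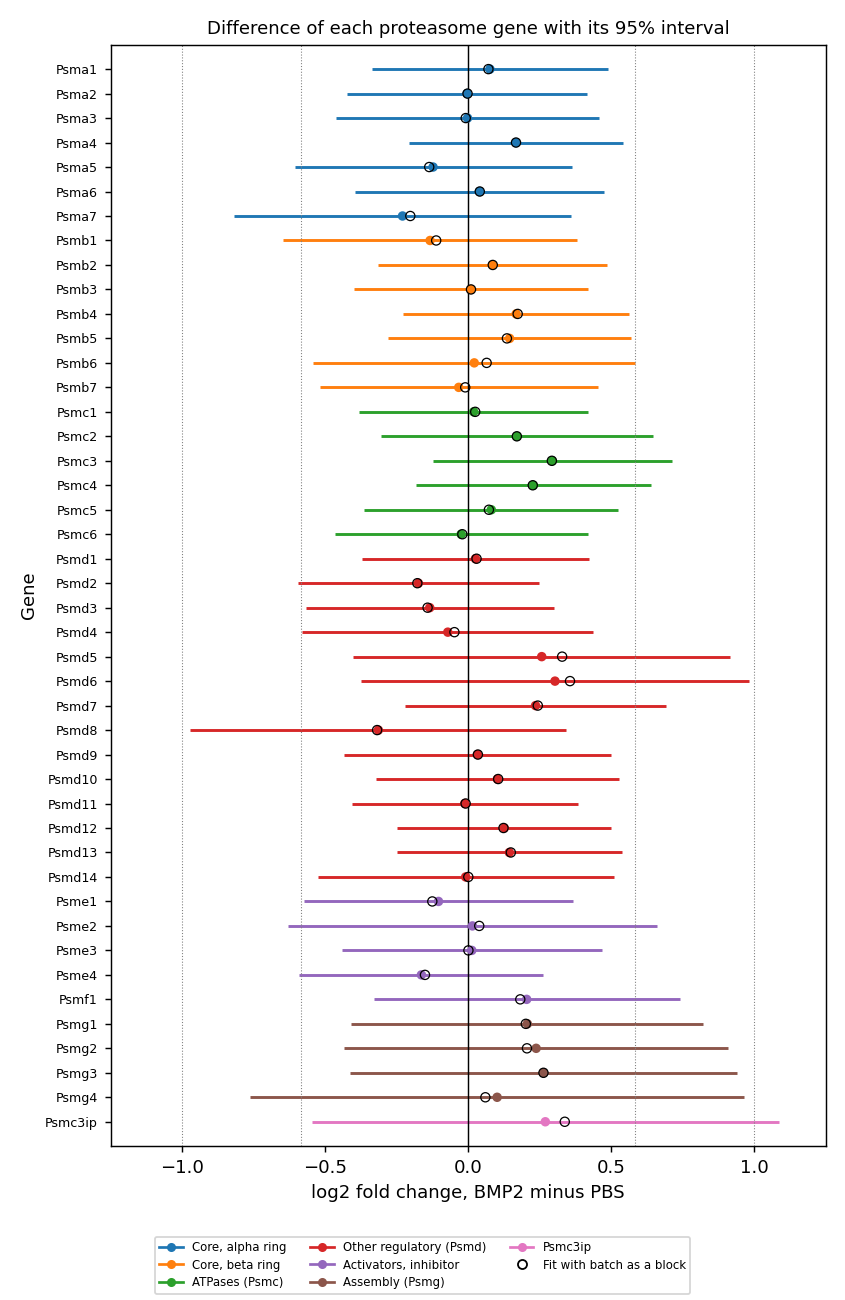
Log2 fold change (BMP2 minus PBS, horizontal axis) of the 44 tested proteasome genes, with filled points and lines for the edgeR estimate and its 95% interval without the block, coloured by gene group, and open circles for the estimate with batch as a block; dotted lines mark 1.5-fold and 2-fold changes. Every interval shown spans 0, and the estimates lie between -0.31 and 0.30 without the block.

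By direction alone, BMP2 exceeded PBS in every batch for 13 of the 44 genes (29.5%) and PBS exceeded BMP2 in every batch for 3 (6.82%), against 22.8% and 21.1% of all tested genes. The 3 lower in each batch were Psma7, Psmd3 and Psme4. All 3 BMP2 libraries lay above all 3 PBS libraries for Psma4, Psmc3 and Psmd12, or 3 of 44 (6.82%) against 6.42% of all genes, and the reverse held for 0 of 44 against 5.72%. Without PBS 1, all BMP2 libraries were above PBS 2 and PBS 3 for 11 of 44 genes against 11.9% of all genes, and below for 0 of 44 against 10.7%. The median log2 fold change of the members without PBS 1 was 0.115, over 35 positive and 9 negative values, and 0 of 44 passed. Within batches 1, 2 and 3 the median log2 difference of the members was -0.0027, 0.11 and 0.10, while that of all tested genes was 0.016, -0.00091 and 0.016. For 27 of the 44 genes BMP2 was higher in both batches 2 and 3, against 34.5% of all genes, and for 6 it was lower in both, against 32.9%.

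Summed over the 47 genes, proteasome transcripts took 6144, 4985 and 5398 CPM in the PBS libraries of batches 1, 2 and 3 and 5726, 5361 and 5377 CPM in the BMP2 libraries. PBS 1 was the highest and PBS 2 the lowest, so that the BMP2 libraries all fell within the range of the controls. The group means were 5509 ± 587 CPM for PBS and 5488 ± 206 CPM for BMP2 (SD, n = 3). In bulk RNA, fewer cells of a kind and less RNA per cell cannot be told apart.

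**Figure D2:**
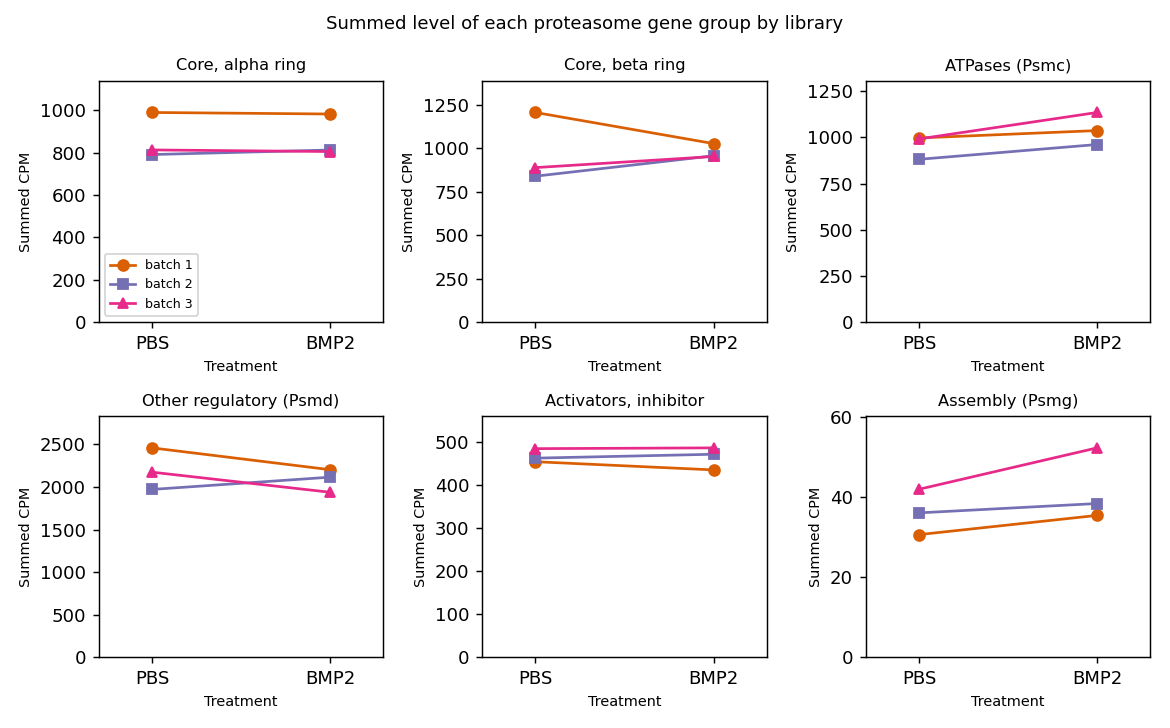
Summed CPM (vertical axis, from 0) of the genes of each group in the PBS and BMP2 libraries, where each line joins the 2 libraries of a batch. In the beta ring panel the line of batch 1 runs from 1205 down to 1026 while the lines of batches 2 and 3 run upward, and the ATPase and assembly panels have an upward line in each batch.

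The alpha subunits form the outer rings of the core particle and its gate. Of 8 alpha genes, 7 were tested, with log2 fold changes of -0.23 to 0.17 and a median of -0.0018. Their summed level was 990.5, 791.6 and 813.4 CPM with PBS and 983.2, 813.1 and 805.8 CPM with BMP2, in the order of batches 1 to 3. Batch 1 was thus the highest in either group.

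Psma4 was at 160.1, 148.5 and 162.6 CPM in the PBS libraries of batches 1, 2 and 3 and at 177.0, 169.9 and 182.3 CPM in the BMP2 libraries. Each BMP2 library was above each PBS library, and the differences within batches were alike, at 0.14, 0.19 and 0.16 on the log2 scale. The log2 fold change was 0.17 (SE 0.16, 95% interval -0.21 to 0.54), with an edgeR adjusted p of 0.886. Psma7 showed the opposite order, with 180.9, 110.6 and 108.9 CPM in PBS against 137.3, 99.9 and 104.4 CPM in BMP2. The groups overlapped and both batch 1 libraries were high. Its log2 fold change of -0.23 (SE 0.26, edgeR adjusted p 0.894) was 0.047 without PBS 1 and -0.386 without BMP2 1.

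Psma3 and Psma5 have processed pseudogenes that share sequence with them, which bears on how reads were divided. All 31-base words of the pseudogene Gm13835 occur in Psma3, so reads of Gm13835 cannot be told from those of Psma3. The authors' table gives Gm13835 73.1 ± 17.3 CPM with PBS and 63.7 ± 7.12 CPM with BMP2, beside 101.4 ± 13.1 and 101.3 ± 17.8 CPM for Psma3 (SD, n = 3). Their sum was 208.5, 151.0 and 163.9 CPM in the PBS libraries and 193.4, 151.0 and 150.7 CPM in the BMP2 libraries. Psma3 alone had a log2 fold change of -0.0018, or 0.103 without PBS 1. For Psma5, 58.4% of its 31-base words occur in other genes, but its 2 closest pseudogenes, Gm8394 and Gm12989, held 6 estimated counts over the PBS libraries and 7 over the BMP2 libraries, against 8595 and 8073 for Psma5 itself. Psma8, the alpha subunit of germ cells, had 0 counts in all 6 libraries, which allows at most 0.103 CPM in the shallowest of them.

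The beta subunits form the inner rings, in which 3 of the 7 constitutive members cut peptide bonds. The log2 fold changes of the 7 tested beta genes were -0.13 to 0.17, with a median of 0.022. Psmb5, whose product carries the chymotrypsin-like site, was at 60.4, 54.7 and 60.3 CPM in the PBS libraries of batches 1, 2 and 3 and at 56.6, 61.5 and 76.0 CPM in the BMP2 libraries. The groups overlapped, and BMP2 3 was the highest library. The log2 fold change was 0.15 (SE 0.18, 95% interval -0.28 to 0.57, edgeR adjusted p 0.903). Without BMP2 3 it was 0.0074, and without BMP2 1 it was 0.233. Other genes hold 65.7% of the 31-base words of Psmb5, but its closest pseudogene, Gm3375, had only 1 estimated count over the PBS libraries and 4 over the BMP2 libraries.

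Psmb6, for the caspase-like site, was at 292.3, 175.9 and 172.9 CPM in PBS and 233.2, 210.4 and 207.2 CPM in BMP2. Psmb7, for the trypsin-like site, was at 266.7, 177.8 and 187.4 CPM in PBS and 215.4, 209.7 and 192.9 CPM in BMP2. For both genes PBS 1 was the highest of the 6 libraries, while PBS 2 and PBS 3 were the 2 lowest. Their log2 fold changes were 0.022 (SE 0.24) and -0.032 (SE 0.21), with edgeR adjusted p of 0.987 and 0.982. Within batches 1, 2 and 3 the log2 differences were -0.33, 0.26 and 0.26 for Psmb6 and -0.31, 0.24 and 0.041 for Psmb7. Without PBS 1 the fold changes were 0.309 for Psmb6 and 0.17 for Psmb7.

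Psmb4, a structural beta gene, was at 85.9, 68.1 and 76.4 CPM in PBS and 90.7, 83.4 and 84.9 CPM in BMP2, higher in each batch but with overlap between the groups (log2 fold change 0.17, SE 0.17, edgeR adjusted p 0.889). The value of Psmb4 was 0.089 without PBS 2 and 0.25 without PBS 1. Psmb11, the thymus-specific beta subunit, had 5, 5 and 2 estimated counts in the PBS libraries and 1, 5 and 0 in the BMP2 libraries and was not tested. The 3 immunoproteasome genes that replace the catalytic subunits under interferon were low in comparison. Psmb8 was at 1.92, 1.74 and 1.02 CPM in PBS and 1.64, 0.467 and 0.125 CPM in BMP2. It was lower with BMP2 in all 3 batches, with log2 differences of -0.217, -1.776 and -2.55. The value in BMP2 3 rests on few reads, since 3 counts make 0.0749 CPM in that library. The groups overlapped and Psmb8 did not pass (edgeR adjusted p 0.883, or 0.271 with the block). Its unadjusted edgeR p with the block was 0.0368, and 17% of all genes lay under 0.05 in that fit. Psmb9 was at 1.17 ± 0.202 CPM with PBS and 1.21 ± 0.810 CPM with BMP2, and Psmb10 at 11.1 ± 3.40 and 10.49 ± 1.95 CPM (SD, n = 3).

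The ATPases of the regulatory particle form the ring that unfolds substrates and opens the gate. All 6 ATPase genes were tested, 5 had positive log2 fold changes, and the median was 0.13 with a range of -0.024 to 0.29. Their summed level was 996.8, 881.2 and 991.8 CPM in the PBS libraries and 1037, 961.5 and 1135 CPM in the BMP2 libraries of batches 1, 2 and 3. BMP2 was higher in each batch, by 0.057, 0.13 and 0.20 on the log2 scale, but BMP2 2 lay below PBS 1 and PBS 3.

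Psmc3 (chr2:91054009-91066369, plus strand, GRCm38) was at 180.9, 153.9 and 181.3 CPM in PBS and 213.7, 187.1 and 232.2 CPM in BMP2. Each BMP2 library exceeded each PBS library, and the log2 differences within batches were 0.24, 0.28 and 0.36. The log2 fold change was 0.29 (SE 0.18, 95% interval -0.12 to 0.71), which did not pass (edgeR adjusted p 0.883, or 0.299 with the block). Psmc4 was at 114.1, 119.4 and 136.3 CPM in PBS and 140.7, 130.2 and 162.2 CPM in BMP2, with overlap between the groups. Its log2 fold change was 0.23 (SE 0.18, edgeR adjusted p 0.883). Leaving out BMP2 3 gave 0.13, and leaving out BMP2 2 gave 0.297. Psmc2 was also higher in each batch, whereas Psmc1, Psmc5 and Psmc6 were not.

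The remaining regulatory genes comprise 3 non-ATPase genes of the base (Psmd1, Psmd2 and Psmd4), 8 of the lid (Psmd3, Psmd6, Psmd7, Psmd8, Psmd11, Psmd12, Psmd13 and Psmd14) and 3 for chaperones of base assembly (Psmd5, Psmd9 and Psmd10). All 14 were tested, with a median log2 fold change of 0.030 over 8 positive and 6 negative values. The medians were -0.071 for the base genes, 0.059 for the lid and 0.10 for the chaperones. The lid sums were 1719, 1316 and 1465 CPM in PBS and 1531, 1422 and 1264 CPM in BMP2, with Psmd8 as the largest part.

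Psmd8 (chr7:29174188-29180701, minus strand, GRCm38), a scaffold subunit of the lid, had the most negative log2 fold change of the tested members. It was at 912.8, 540.9 and 641.1 CPM in the PBS libraries of batches 1, 2 and 3 and at 689.8, 601.1 and 394.7 CPM in the BMP2 libraries. PBS 1 was the highest and BMP2 3 the lowest, and batch 2 went the other way, with log2 differences of -0.40, 0.15 and -0.70. The log2 fold change was -0.31 (SE 0.29, 95% interval -0.97 to 0.34, edgeR adjusted p 0.884). It was -0.08 without PBS 1, -0.12 without BMP2 3 and -0.488 without BMP2 1. Psmd6, another lid scaffold, was at 18.9, 31.1 and 40.6 CPM in PBS and 32.9, 34.5 and 44.4 CPM in BMP2. PBS 1 was the lowest library for this gene and PBS 3 lay above 2 of the 3 BMP2 libraries. Its log2 fold change was 0.30 (SE 0.29, edgeR adjusted p 0.886), and within batches the differences were 0.80, 0.15 and 0.13. Without PBS 1 it was 0.052, and without PBS 3 it was 0.577.

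Psmd7, which pairs with the deubiquitinase subunit encoded by Psmd14, was at 127.2, 169.7 and 172.7 CPM in PBS and 165.0, 182.9 and 205.1 CPM in BMP2. BMP2 was higher in each batch with overlap between the groups, and the log2 fold change was 0.24 (SE 0.20, edgeR adjusted p 0.883). That value was 0.101 without PBS 1, 0.147 without BMP2 3 and 0.31 without BMP2 1. Psmd12 was at 110.2, 108.8 and 107.3 CPM in PBS and 129.0, 113.9 and 113.3 CPM in BMP2. The groups did not overlap and the control libraries lay within 3 CPM of each other, yet the difference was small, at 0.13 on the log2 scale (SE 0.16, edgeR adjusted p 0.903). The value of Psmd12 was 0.063 without BMP2 1 and 0.155 without BMP2 2. Psmd2, which encodes a large scaffold of the base, was at 297.7, 261.1 and 258.6 CPM in PBS and 214.3, 272.0 and 238.4 CPM in BMP2, a log2 fold change of -0.17 (SE 0.18, edgeR adjusted p 0.892). The value of Psmd2 was -0.11 without PBS 1, -0.094 without BMP2 1 and -0.268 without BMP2 2. Psmd5 was at 26.5, 45.8 and 59.5 CPM in PBS and 49.7, 53.1 and 55.0 CPM in BMP2. Its log2 fold change of 0.26 (SE 0.29, edgeR adjusted p 0.894) was -0.0085 without PBS 1, the lowest library.

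**Figure D3:**
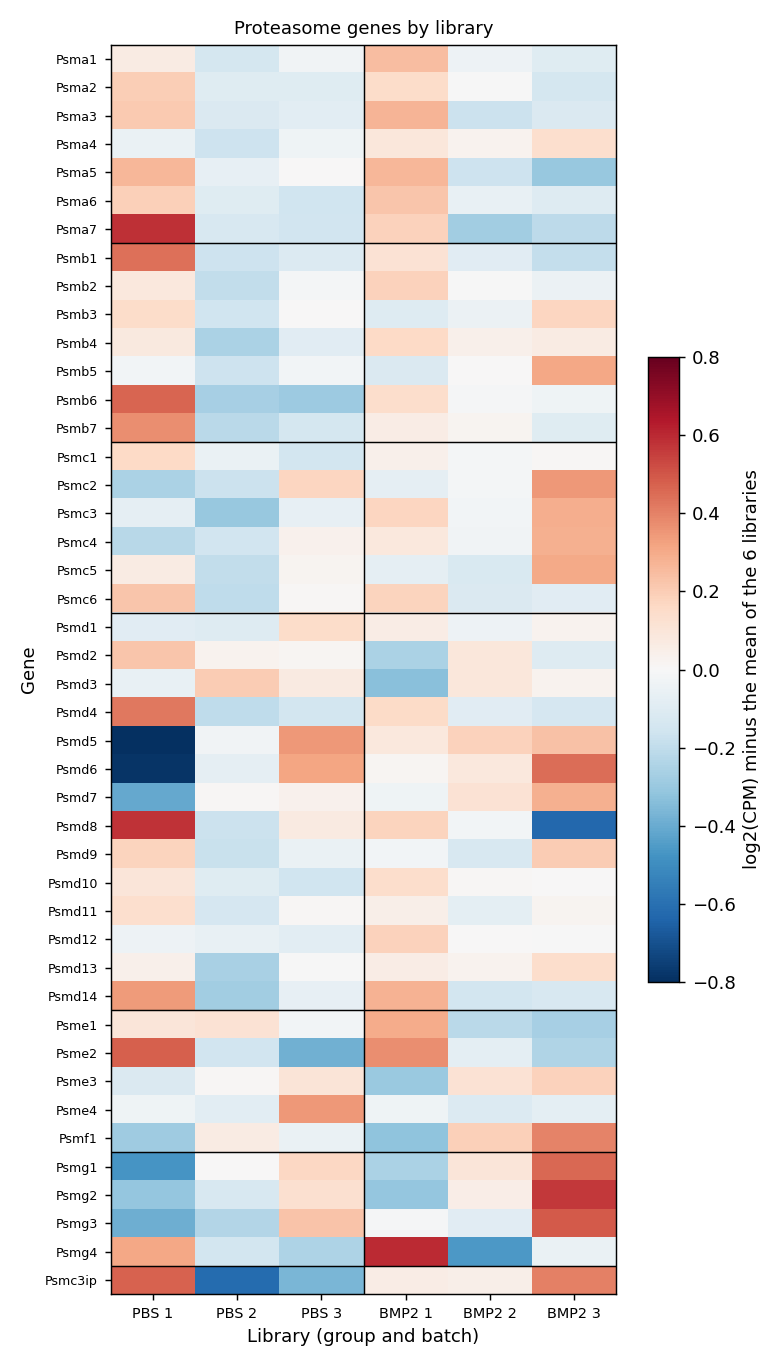
Heat map of log2(CPM) minus the mean of the 6 libraries (colour scale) for the 44 tested proteasome genes in rows and the 6 libraries in columns, with lines between gene groups and between PBS and BMP2. In PBS 1, Psmd8, Psma7 and Psmb6 are high and Psmd5 and Psmd6 low, and BMP2 3 is low for Psmd8.

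Activators of the core particle other than the regulatory particle open its gate without ATP. Of 6 genes for activators and the inhibitor, 5 were tested, with log2 fold changes of -0.16 to 0.21 and a median of 0.013. Psme1, a subunit of the interferon-inducible activator, was at 71.8, 72.6 and 66.0 CPM in PBS and 82.3, 57.8 and 55.9 CPM in BMP2. Psme2, its partner subunit, was at 57.5, 37.0 and 31.5 CPM in PBS and 53.4, 39.1 and 34.9 CPM in BMP2. In the BMP2 libraries both genes were highest in batch 1 and lowest in batch 3. In the PBS libraries Psme2 was again highest in batch 1, while Psme1 stayed between 66.0 and 72.6 CPM. Their log2 fold changes were -0.10 (SE 0.20) and 0.015 (SE 0.28), with edgeR adjusted p of 0.939 and 0.993. The value of Psme2 was 0.302 without PBS 1 and -0.184 without BMP2 1. That of Psme1 was -0.0095 without BMP2 3 and -0.304 without BMP2 1.

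Psme2b shares 76.5% of its 31-base words with Psme2. It held 67, 0 and 0 estimated counts in the BMP2 libraries of batches 1, 2 and 3 and 0, 7 and 0 in the PBS libraries, and was not tested. The reads of that single library were thus the main part of its count. Psme4, the large nuclear activator, was at 61.4, 59.2 and 79.8 CPM in PBS and 61.3, 58.3 and 59.5 CPM in BMP2. Except for PBS 3, the libraries lay within 4 CPM of each other, and the log2 fold change was -0.16 (SE 0.19, edgeR adjusted p 0.894). It was -0.016 without PBS 3. Psmf1, which encodes an inhibitor of the core particle in vitro, was at 33.3, 42.5 and 39.1 CPM in PBS and 32.5, 46.3 and 53.5 CPM in BMP2, with overlap between the groups (log2 fold change 0.21, SE 0.23, edgeR adjusted p 0.894). The value of Psmf1 was 0.109 without PBS 1, 0.038 without BMP2 3 and 0.383 without BMP2 1.

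The Psmg genes encode chaperones that help to build the alpha ring and are not part of the finished particle. All 4 had positive log2 fold changes, of 0.10 to 0.26, with a median of 0.22, and none passed. Their summed level was 30.6, 36.0 and 41.9 CPM in the PBS libraries and 35.4, 38.4 and 52.2 CPM in the BMP2 libraries of batches 1, 2 and 3. BMP2 was higher in each batch, by 0.21, 0.091 and 0.32 on the log2 scale, but BMP2 1 and BMP2 2 lay below PBS 3. Psmg1 was at 12.8, 17.8 and 19.97 CPM in PBS and 14.9, 19.1 and 24.5 CPM in BMP2, with a log2 fold change of 0.21 (SE 0.27, edgeR adjusted p 0.903). This difference was 0.04 without PBS 1, 0.0037 without BMP2 3 and 0.367 without BMP2 1. For Psmg2 the values were 7.61, 8.63 and 10.3 CPM in PBS and 7.60, 9.75 and 13.9 CPM in BMP2, and the log2 fold change was 0.24 (SE 0.29, edgeR adjusted p 0.898). The latter was 0.137 without PBS 1, -0.033 without BMP2 3 and 0.421 without BMP2 1. Both genes were lowest in batch 1 and highest in batch 3 in each group. Psmg3 was at 5.53, 6.18 and 8.50 CPM in PBS and 7.22, 6.83 and 10.2 CPM in BMP2, with a log2 fold change of 0.26 (SE 0.29, edgeR adjusted p 0.894). It was smaller without PBS 1, at 0.136, and without BMP2 3, at 0.054, and larger without BMP2 2, at 0.372. Psmc3ip, the gene that is no subunit, was at 7.35, 3.46 and 4.10 CPM in PBS and 5.51, 5.46 and 6.99 CPM in BMP2. Its log2 fold change was 0.27 (SE 0.35, edgeR adjusted p 0.903), or 0.659 without PBS 1 and 0.065 without PBS 2.

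The order of the batches was often shared by the groups. For 33 of the 44 tested genes (75.0%) the batch with the highest PBS library was also the batch with the highest BMP2 library, against 58.5% of all tested genes. That batch was batch 1 for 21 genes, among them Psma3, Psma5, Psma7, Psmb6 and Psmb7, batch 3 for 11 genes, among them Psmd6, Psmd7, Psmg1, Psmg2 and Psmg3, and batch 2 for 1 gene. The SD of log2 CPM over the 6 libraries had a median of 0.19 for the members, from 0.094 for Psmd11 to 0.43 for Psmd6, and of 0.37 over all tested genes. The members are also more abundant, with a median level of 112 CPM against 21.7 CPM, which goes with smaller counting error, and the part of abundance in the smaller SD was not tested. For the COP9 signalosome, a complex whose subunits resemble those of the lid, the median SD was 0.19, and for the CCT chaperonin, a ring complex that folds proteins, it was 0.25.

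Between genes, levels can be compared only per transcript length, here CPM divided by the length in kilobases of the longest principal transcript in GENCODE M21. In the PBS libraries most core and ATPase genes lay between 64.9 (Psmb4) and 146 (Psma7) CPM per kilobase. Above that range were Psmb6 at 268 ± 85.3 and Psmb7 at 182 ± 42.0, and below it Psma2 at 48.9 and Psma3 at 35.6, whose annotated transcripts of 2911 and 2846 bases are longer than the 914 to 1239 bases of the other tested alpha genes. The 7 tested alpha genes spanned 4.10-fold and the 7 beta genes 4.12-fold. The alpha span ends at Psma3, whose level leaves out the reads given to Gm13835. Psmd8 was the highest member, at 453 ± 125 CPM per kilobase, or 1.69 times the next. The assembly genes were among the lowest, at 6.69 for Psmg4 to 16.2 for Psmg1, with the base chaperones Psmd9 at 8.23 and Psmd5 at 10.0, and Psmc3ip was the lowest tested gene, at 3.85 ± 1.62 CPM per kilobase. With BMP2 the highest and the lowest were the same genes, with Psmd8 at 365 ± 98.3 and Psmc3ip at 4.64 ± 0.673 CPM per kilobase (SD, n = 3). The length of the transcripts that the cells used is not known from a table per gene. With the shortest principal transcript in place of the longest, Psmd11 would move from 70.5 to 124 CPM per kilobase in PBS and Psmf1 from 10.1 to 27.7.

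**Figure D4:**
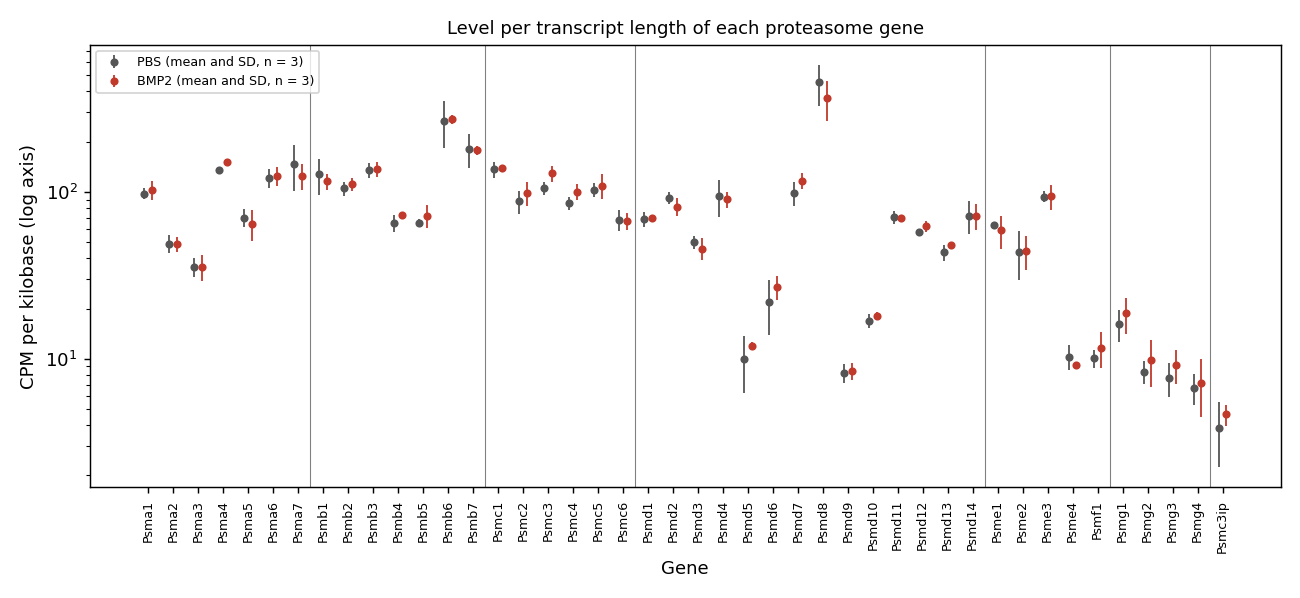
CPM per kilobase of transcript (log axis) of the 44 tested proteasome genes in the PBS (grey) and BMP2 (red) libraries, as mean and SD over 3 libraries, with vertical lines between gene groups. Psmd8 and Psmb6 lie highest, and assembly genes and Psmc3ip among the lowest, in both groups.

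Genes that act with the proteasome under other names gave 0 of 9 called in either fit, against 0.0464% of all genes without the block and 0.735% with it. Their median log2 fold change was -0.21, and 6 of the 9 were lower with BMP2 in each batch against 21.1% of all genes. At an unadjusted p under 0.05 there were 0 of 9 without the block and 1 with it, against 17% of all genes in the blocked fit. That gene was Ube3c, a ubiquitin ligase of the proteasome, which was higher with BMP2 (log2 fold change 0.31, SE 0.13, edgeR adjusted p 0.281 with the block). Uchl5, a deubiquitinase of the regulatory particle, was at 52.9, 27.7 and 29.5 CPM in PBS and 25.4, 27.2 and 23.2 CPM in BMP2. All BMP2 libraries lay below all PBS libraries, with PBS 1 far above the other 5 libraries, and the log2 fold change was -0.54 (SE 0.28, edgeR adjusted p 0.883). Ecpas, an adaptor of the proteasome, was at 127 ± 18.2 CPM with PBS and 103 ± 9.72 CPM with BMP2, and Txnl1, a thioredoxin bound to the regulatory particle, at 113 ± 20.6 and 93.8 ± 19.0 CPM (SD, n = 3). Both were lower in each batch. For Txnl1 the highest library was PBS 1, at 136.9 CPM, against 99.2 and 103.7 CPM in PBS 2 and PBS 3.

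Of the genes that supply or deliver the ubiquitin tag, the fusion gene Rps27a was at 564 ± 197 CPM with PBS and 411 ± 48.4 CPM with BMP2 (SD, n = 3). PBS 1 was its highest library, at 791.1 CPM, against 430.2 and 472.2 CPM in PBS 2 and PBS 3. The shuttle gene Ubqln1, whose product carries tagged proteins to the proteasome, was at 177.5, 151.1 and 148.0 CPM in PBS and 121.6, 137.8 and 129.1 CPM in BMP2. Each BMP2 library of Ubqln1 lay below each PBS library, and the log2 fold change of -0.29 (SE 0.17) did not pass (edgeR adjusted p 0.883, or 0.339 with the block). Rps27a was also lower with BMP2 in each batch, with overlap between the groups and an edgeR adjusted p of 0.883.

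The Nfe2l1 route covers this factor and the genes that release it from the endoplasmic reticulum, with a median log2 fold change of 0.083. In it 0 of 8 genes were called in either fit, where 0.0464% of all genes were called without the block and 0.735% with it. At an unadjusted p under 0.05 there were also 0 of 8 in either fit, against 5.38% and 17% of all genes. Nfe2l1 was at 413.4, 376.3 and 436.5 CPM in PBS and 280.1, 349.2 and 385.7 CPM in BMP2, lower in each batch with overlap between the groups (log2 fold change -0.27, SE 0.20, edgeR adjusted p 0.883). Ufd1 was at 28.8 ± 1.85 CPM with PBS and 34.2 ± 3.55 CPM with BMP2, and Ngly1 at 16.2 ± 1.74 and 18.6 ± 1.09 CPM (SD, n = 3).

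For comparison with other complexes, 0 of 10 COP9 signalosome genes and 0 of 7 CCT chaperonin genes passed in either fit. Of all genes, 0.0464% passed without the block and 0.735% with it. At an unadjusted p under 0.05 there were 0 of each without the block, and 1 and 2 with it, against 17% of all genes. The medians were -0.012 for COP9 and -0.33 for CCT, where 5 of 7 genes were lower in each batch against 21.1% of all genes, among them Cct2 at 501 ± 112.5 CPM with PBS and 388 ± 20.9 CPM with BMP2 (SD, n = 3). In the COP9 list Cops2 was at 274 ± 94.2 CPM with PBS and 176.5 ± 49.7 CPM with BMP2, while Cops3 went the other way, at 122 ± 11.6 and 146 ± 7.70 CPM (SD, n = 3). For Cct2 and Cops2 the highest library was PBS 1, at 630.3 and 381.4 CPM. PBS 2 and PBS 3 were at 426.0 and 446.6 CPM for Cct2 and at 236.0 and 205.1 CPM for Cops2. Whether the proteasome genes differ from the COP9 and CCT genes in their response was not tested. In the heat shock list, 0 of 7 tested genes passed in either fit, where 0.0464% and 0.735% of all genes did. At an unadjusted p under 0.05 there was 1 gene in each fit, Hspa1b without the block and Dnajb1 with it. Of all genes, 5.38% and 17% lay under that value. Hspa1b, an inducible chaperone gene that shares 68.1% of its 31-base words with other genes, was at 86.4 CPM in PBS 1. It was at 1.46 to 3.01 CPM in the other 5 libraries. Hspa8, Hsp90aa1 and Hsph1 were also highest in PBS 1, at 5751, 2350 and 78.4 CPM. The remaining tested genes of the list were not. Dnajb1 and Bag3 were highest in PBS 2, at 113.7 and 78.5 CPM, and Sqstm1 in BMP2 3, at 1015 CPM. For Bag3, PBS 1 was the lowest library, at 35.9 CPM. The part of these genes in the proteasome values of PBS 1 was not tested.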

How the data were processed

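Per the file headers the values are per gene, and from their decimals they are the estimated counts that the authors deposited. The submitters' processing notes name kallisto 0.44.0 and GRCm38.p6. How transcripts were summed to genes, and with which annotation, is not stated in the labels. Of 34981 genes, 34679 matched GENCODE M21 by identifier. The table's control columns belong to the samples that the labels call untreated; the protocol gives these PBS.

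Counts were rounded and tested with edgeR 4.0.16 in R 4.3.3 (default low-count filter, TMM, quasi-likelihood test, treatment only, Benjamini-Hochberg over all 12929 tested genes, threshold 0.05). Log2 values per library use a prior count of 2. The SE was worked back from the F statistic. Since replicate numbers mark a shared batch per the labels, a fit with batch as a block was run too (2 residual degrees of freedom, against 4). As a check of that pairing, the deviations of same-numbered libraries from their groups had r of 0.514, 0.248 and 0.518 for batches 1, 2 and 3. Sharing of reads was counted in 31-base words over annotated transcripts with Python 3.11.15. Both fits were run on simulated counts. Those for the fit without the block held no batch effect, and no outlying library like PBS 1 was simulated.

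The members and lists were chosen with earlier results of these data known. Values per library are given for Psmb5, Psmb6, Psmb7 and, per gene group, the 2 members with the smallest p in either fit. For the other lists, up to 3 members with the smallest p are named. Psma3, Psma5, Psmc3ip, Psmd2, Psmd5, Psmd12, Psme1, Psme2 and other genes named outside this rule were chosen after their values were seen. Alternatives were DESeq2 size factors and the Wald test of DESeq2 1.42.0, no filter, a mean of 100 counts, sums over near-identical genes, leaving out libraries or batches and, added after seeing the data, sums over genes sharing 30% of a member's 31-base words. A count of 0 allows up to 3 counts, for counting error only. The counts and median of the list of ubiquitin genes, activating enzymes and shuttles, and some of its genes, are not reported here.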

Additional observations from a re-analysis of the deposited data

How the results depend on the processing

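For the proteasome genes, 0 of 44 (46 with no filter) passed under each of the 17 alternatives run, and the smallest adjusted p of a member over them was 0.138. The replicate block changed no call of a member. The median log2 fold change was 0.115 without PBS replicate 1, and lay between 0.00283 and 0.115 when 1 library or batch was left out. Of 748 member values over the alternatives, 75 had the opposite sign to the main value, in 22 members, none with a main value above 0.258 in size, and the cause was not tested. Psma3 was at 0.0133 with no filter. With 1 library left out, the values ran from -0.155 to 0.103 for Psma3, -0.386 to 0.0467 for Psma7, -0.11 to 0.309 for Psmb6, -0.141 to 0.167 for Psmb7, -0.00845 to 0.538 for Psmd5, -0.184 to 0.302 for Psme2 and -0.0332 to 0.421 for Psmg2. In the blocked fit without 1 batch they ran from -0.0502 to 0.0177 for Psma3, -0.0385 to 0.253 for Psmb6 (-0.0307 without batch 2), -0.132 to 0.133 for Psmb7 and -0.0187 to 0.106 for Psme2.

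Over all genes, 6 passed without the block. The count was 95 with the replicate block, also with members summed with the genes sharing their 31-mers, 35 with no filter, 130 with the DESeq2 Wald test and 1 with near-identical genes summed. It ran from 2 to 10 with 1 library left out, and in the blocked fit it was 606 without batch 1, 35 without batch 2 and 159 without batch 3. The intervals given for each gene come from the fit without the block and are not limits of detection. With 3 libraries per group small changes can be missed, and the smallest change that the tests could detect was not worked out. The median SE of the proteasome genes was 0.198 without the block and 0.133 with it.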
